A study of Mus musculus with 12 samples.

Results

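The 3 arrays of the Oct4 and Tet1 induced pluripotent stem (iPS) cell line were compared with the 3 arrays of day-1 cells, which carry the same 2 inducible factors and had been induced for 1 day. These 6 of the 12 arrays of the series were chosen by their sample titles, and 9539 genes were compared. Both groups are mouse cells of the strain background OG2-GFP/Rosa26-M2rtTA, which carries a green fluorescent reporter and the doxycycline-dependent activator that switches the factors on. The day-1 cells were fibroblasts taken from mice that derive from such iPS cells. They had been grown in feeder medium up to passage 3 and then for 1 day in ES medium with doxycycline. The iPS cells were line OT#b at passage 10, grown on mitomycin C-treated mouse embryonic fibroblasts, which serve as feeders, in ES medium, whose recipe holds the cytokine LIF. The other 6 arrays hold fibroblasts of the same background at passage 3 and R1 embryonic stem (ES) cells at passage 20, a line of 129 background grown on the same kind of feeders. They form a second pair of pluripotent and somatic cells, which shares no array with the first. The strain label of fibroblast replicates 2 and 3 reads M3rtTA and M4rtTA in place of M2rtTA.

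The iPS group is 1 line, and no label states whether replicate arrays stand for separate cultures. The p-values therefore measure the spread between these samples only, which may be technical. Stage, passage, feeders, time in ES medium and doxycycline differ together between the groups and cannot be told apart. A step that lets feeders settle out before RNA extraction is stated for ES cells and not for the iPS line.

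Reprogramming turns a differentiated cell into one that renews itself and can form every tissue of the embryo. Oct4, encoded by Pou5f1, is the POU-domain transcription factor at the centre of the pluripotency network, where it binds DNA beside Sox2 and, with Nanog, acts on its own gene and on those of its partners. Tet1 oxidises 5-methylcytosine, a step on the way to the loss of DNA methylation, and is itself abundant in ES cells. On the way to pluripotency, fibroblasts lose mesenchymal identity, gain epithelial junctions, and take on the short cell cycle of early embryonic cells. The labels place day 1 as the intermediate stage, so the comparison shows what separated cells just induced from the finished line.

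All levels are log2 values of 1 probe set per gene, so a difference of 1 is 2-fold. A gene was called when limma's adjusted p was under 0.05 and the difference of means, iPS minus day-1, was at least 2-fold. Array medians were 8.25 to 8.29 in day-1 cells and 7.98 to 8.06 in iPS cells. Across genes, arrays correlated at 0.997 among day-1 cells, at 0.994 among iPS cells and at 0.694 to 0.706 between the groups. The mean level of 6 pluripotency markers (Nanog, Sox2, Zfp42, Esrrb, Dppa5a and Tdgf1) was 5.21 to 5.43 on day-1 arrays and 11.55 to 11.62 on iPS arrays. The mean of 11 fibroblast markers was 10.97 to 11.03 on day-1 arrays and 8.68 to 8.80 on iPS arrays, against 7.68 to 8.11 in ES cells. Of the 11 fibroblast markers 8 were called lower in iPS cells and none higher, and all 6 pluripotency markers were called higher. Both labels thus match their markers, with the fibroblast list above its ES level in the iPS line. The mean of 9 macrophage markers was 7.09 to 7.28 in day-1 cells and 6.19 to 6.30 in iPS cells. Of 14 keratinocyte markers 4 were measured, Krt5, Krt14, Krt15 and Trp63 not among them. Sfn (2.21) and Krt17 (1.33) were higher in iPS cells, by log2 differences in brackets, and Ivl (-0.28) and Lor (-0.26) were not called.

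Of the 9539 genes, 4216 differed by the call rule, which is 44.2% of those tested. In iPS cells 1679 genes (17.6%) were higher and 2537 (26.6%) were lower, and for all 4216 the 3 iPS arrays did not overlap the 3 day-1 arrays. Such separation was common, at 94.0% of all genes, and 92.8% passed on adjusted p alone. At 4-fold or more there were 444 higher and 718 lower genes, and at 16-fold or more 53 and 25. The median difference was -0.34 over all genes, and 4068 genes (42.6%) had a 95% interval within 2-fold. The balance of calls depended on scaling: 39.8% were higher in the values as deposited, 51.2% after quantile normalization and 55.3% with arrays centred on a common median. Every deposited probe set varied by at least 0.51 on the log2 scale, and whether a filter chose them is not given. Each count of a gene group in the values as deposited is to be read beside 17.6% and 26.6%. Counts under another scaling are to be read beside the totals of that scaling. Of 9539 genes these were 2188 higher and 2087 lower after quantile normalization, and 2338 higher and 1889 lower with centred arrays.

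The highest differences were those of Dppa5a, Bex1 and Tdgf1, of which Dppa5a and Tdgf1 belong to the pluripotency network. Bex1, an adaptor gene known from neural tissue and ES cells, read 3.44, 3.59 and 3.43 in day-1 cells and 11.05, 11.07 and 11.12 in iPS cells, 193-fold higher (log2 difference 7.59 ± 0.09 SE, adjusted p = 4.6e-15). The lowest were those of the chemokine gene Ppbp (-6.48 on the log2 scale), the protease inhibitor gene Serpina3n (-5.06), the fatty acid carrier Fabp7 (-4.90) and Ly96 (-4.88), which helps the receptor Tlr4 bind endotoxin. Fabp7 read 10.13, 10.14 and 10.20 in day-1 cells and 5.30, 5.10 and 5.36 in iPS cells, and averaged 6.69 in fibroblasts. Neither Bex1 nor Fabp7 had overlapping groups, and Fabp7 was called higher in day-1 cells than in untreated fibroblasts, so day-1 cells held its highest level.

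The probe sets of the 2 induced factors did not read alike at day 1. Pou5f1 read 11.85, 11.73 and 11.81 on the day-1 arrays and 12.01, 12.04 and 11.96 on the iPS arrays. The level was high in every array of both groups, with the iPS arrays just above. The difference of 0.21 ± 0.08 (SE, adjusted p = 0.028) had a 95% interval of 0.03 to 0.39 and was not called. In untreated fibroblasts Pou5f1 averaged 5.04, and in ES cells 12.37. Tet1 read 7.47, 7.47 and 7.45 in day-1 cells and 10.27, 10.17 and 10.33 in iPS cells. All iPS arrays lay far above all day-1 arrays, and the difference of 2.79 ± 0.09 (SE, adjusted p = 1e-11) made Tet1 6.91-fold higher in iPS cells. Tet1 averaged 6.68 in fibroblasts and 11.36 in ES cells. Whether each probe set reads the introduced copy, the gene itself or both is not known from the sources used here. These levels therefore do not measure how far the introduced copies were induced, and the part of each copy was not tested.

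The other Tet enzymes split. Tet2 read 6.77, 6.97 and 7.03 in day-1 cells and 9.17, 8.88 and 9.38 in iPS cells, and was 4.67-fold higher (log2 difference 2.22 ± 0.15 SE, adjusted p = 1.1e-08). Tet3, the form of the oocyte and of differentiated cells, read 7.77, 7.78 and 8.02 in day-1 cells and 6.59, 5.96 and 6.35 in iPS cells, and was 2.94-fold lower (log2 difference -1.56 ± 0.13 SE, adjusted p = 9.8e-08). Neither gene's groups overlapped. Among the factors that the classic reprogramming mixtures add and this one omits, Sox2 read 5.35, 5.12 and 5.20 in day-1 cells and 11.95, 11.93 and 11.85 in iPS cells. Sox2 was thus 103-fold higher in the iPS line (log2 difference 6.69 ± 0.17 SE, adjusted p = 2.1e-12). Klf4, a zinc-finger factor of the network, was 3.3-fold higher (log2 difference 1.72 ± 0.10 SE, adjusted p = 3.3e-09). Myc, a growth-promoting factor that fibroblasts also express, went the other way. Its levels were 10.31, 10.33 and 10.24 in day-1 cells and 8.71, 8.59 and 8.75 in iPS cells, 3.05-fold lower (log2 difference -1.61 ± 0.13 SE, adjusted p = 4.7e-08), against 10.19 in fibroblasts and 9.94 in ES cells.

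**Figure D1:**
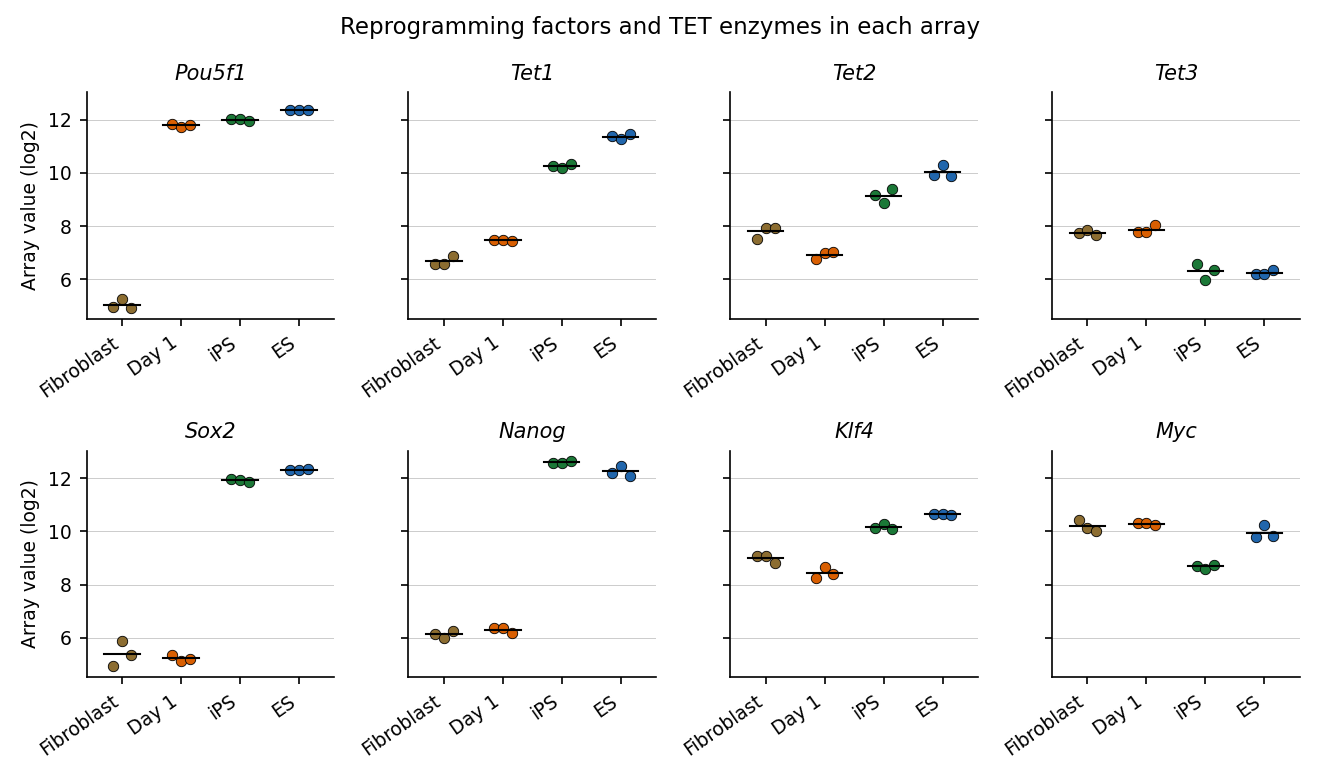
Log2 level of Pou5f1, Tet1, Tet2, Tet3, Sox2, Nanog, Klf4 and Myc on each of the 12 arrays, with 1 point per array, a bar at the mean of each group of 3, and groups from fibroblasts on the left to ES cells on the right. Pou5f1 lies at 11.73 or above in day-1 and iPS cells alike, Nanog and Sox2 are high in iPS and ES cells alone, and Tet3 and Myc are lower in iPS than in day-1 cells.

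The pluripotency network had the largest median difference, in either direction, of the 52 lists examined. Of 37 measured members, 34 were higher in iPS cells, none was lower, and the list median was 3.62 against -0.34 over all genes. Pou5f1 (0.21), Nacc1 (-0.56) and Eras (0.81) were the members not called. Nanog, the homeodomain factor of the ground state, read 6.38, 6.35 and 6.18 in day-1 cells and 12.56, 12.56 and 12.65 in iPS cells, 77.9-fold higher (log2 difference 6.28 ± 0.10 SE, adjusted p = 6.7e-14). Tdgf1, the Nodal co-receptor Cripto, read 5.21, 5.07 and 5.29 in day-1 cells and 12.33, 12.35 and 12.33 in iPS cells, 142-fold higher (log2 difference 7.15 ± 0.08 SE, adjusted p = 4.6e-15). Dppa5a, an RNA-binding protein of early embryonic cells, was 255-fold higher, with levels of 4.02, 5.53 and 5.27 in day-1 cells, where the arrays varied, and 12.94, 12.96 and 12.91 in iPS cells. At day 1 none of Nanog, Sox2, Tdgf1 and Dppa5a was called against untreated fibroblasts, where they averaged 6.12, 5.40, 4.93 and 5.27. Few genes were called in that comparison, 3.46% of all genes higher and 4.33% lower in day-1 cells. The Pou5f1 probe set, which may read the introduced copy, was within 0.21 of its iPS level at day 1. Zfp42, also called Rex1, read 4.61, 4.74 and 4.74 in day-1 cells and 8.42, 8.82 and 8.56 in iPS cells, 15.0-fold higher. Its iPS level stayed below the ES mean of 11.37.

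The upstream sequence of Nanog is shown because it holds the one composite site of the kind that Oct4 and Sox2 bind together among the promoters searched. Promoter windows of 300 bases, 250 before to 50 after a start, were taken from RefSeq on build GRCm38.p6 for 7533 of the genes tested. The motif searched was CATTGT followed by ATGCAA after 0 to 3 bases, on both strands, and Nanog alone of 7533 genes (0.0133%) held it. Variants of these letters were not searched, and 24 of the 37 measured pluripotency genes had a window. Nanog has it at 2 listed starts, and from the downstream one the site lies at bases -150 to -138. Shown are the 250 bases before the upstream start, chr6:122707239-122707488 on the plus strand. The motif, here on the opposite strand, is in capitals at bases -74 to -62.
Nanog: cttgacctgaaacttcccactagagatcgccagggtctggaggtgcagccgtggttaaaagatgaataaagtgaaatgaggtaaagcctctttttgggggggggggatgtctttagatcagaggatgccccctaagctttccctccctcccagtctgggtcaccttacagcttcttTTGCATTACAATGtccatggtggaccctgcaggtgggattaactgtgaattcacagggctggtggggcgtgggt
The octamer ATGCAAAT alone, on either strand, was in 1.99% of promoters of genes higher in iPS cells, 1.59% of genes lower and 1.65% of all. These are matches of letters, with no binding measured, and distant enhancers were not searched.

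Called genes lay on both sides in the Nodal, FGF, LIF and Wnt lists, as over all genes (17.6% higher and 26.6% lower). In the Nodal pathway, which maintains embryonic identity, 7 of 12 members were higher and 2 lower. The ligand gene Nodal (3.62) and its inhibitors Lefty2 (4.86) and Lefty1 (1.85) were higher in iPS cells, the differences in brackets being log2, while the transducer Smad3 (-1.60) and the protease Furin (-2.65), which matures TGF-beta family ligands, were lower. Of 29 genes of the BMP and TGF-beta pathways, 19 were lower and none was called higher (median -1.59), with 1 higher after quantile normalization or centring. Among them were the ligands Inhba (-2.84), Tgfb3 (-2.74) and Tgfb1 (-2.63) and the BMP antagonist Grem1 (-3.29). Of 23 FGF and ERK genes, 6 were higher and 7 lower. The embryonic ligand Fgf4 (3.45) and the feedback and target genes Spry2 (2.75) and Etv5 (2.02) were among the higher ones, and the stromal ligands Fgf2 (-3.51) and Fgf7 (-4.31) among the lower ones. In the LIF and Stat3 pathway, which the LIF of ES medium acts on, 5 of 14 were higher and 4 lower. The kinase gene Pim1 (2.70) was higher and the receptor genes Osmr (-3.08) and Il6st (-1.65) lower, while Lifr (0.63) and Stat3 (-0.95) were not called. Of 35 Wnt genes, 3 were higher and 13 lower, with the target Axin2 (1.66) higher and the ligand and decoy receptor genes Wnt5a (-2.84) and Sfrp2 (-2.78) lower.

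Genes of DNA methylation were mostly higher in iPS cells, with 15 of 24 higher, 3 lower and a median of 1.63. Dnmt3l, the cofactor of the de novo methyltransferases, read 5.68, 5.67 and 5.93 in day-1 cells and 10.98, 10.94 and 10.88 in iPS cells, 36.0-fold higher (log2 difference 5.17 ± 0.10 SE, adjusted p = 2.4e-13). Hells, a remodeller that lets methyltransferases reach packed chromatin, averaged 7.87 ± 0.14 (SD, n = 3) in day-1 cells and 11.49 ± 0.02 in iPS cells, 12.3-fold higher (log2 difference 3.62 ± 0.13 SE, adjusted p = 2.8e-11). No iPS array overlapped a day-1 array for either gene. The de novo enzymes Dnmt3b (3.24) and Dnmt3a (1.38) and the maintenance partner Uhrf1 (2.33) were higher as well, and the maintenance enzyme Dnmt1 (0.61) was not called. The lower members were Tet3 and, of other roles, the methyl-CpG reader Mbd2 (-1.37) and the glycosylase Neil3 (-1.44). The higher genes thus included both writers of the mark and, with Tet1 and Tet2, enzymes that oxidise it.

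Germline genes, many of which are kept silent by promoter methylation in somatic cells, were higher in 14 of 20 cases and lower in none (median 1.62). Tdrd12, a piRNA pathway helicase, read 4.43, 4.82 and 4.93 in day-1 cells and 10.74, 10.91 and 10.82 in iPS cells, 68.3-fold higher (log2 difference 6.09 ± 0.14 SE, adjusted p = 1.2e-12), and averaged 9.46 in ES cells. The meiotic chromosome axis genes Hormad1 (2.97) and Sycp3 (2.30), the RNA-binding genes Dazl (2.42) and Ddx4 (2.26) and the piRNA genes Rnf17 (2.83) and Mael (1.81) were higher too. Sycp3 and Mael averaged 6.01 and 5.85 in the iPS line and 7.75 and 7.81 in ES cells. Members low in every group may be missing from the deposited values, so the count does not give the share of germline genes that were raised.

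Promoters of 3 germline genes are shown for the E-box CACGTG, a site bound by the factors that silence such genes together with methylation. Of 16 germline genes with a promoter window 8 held it on either strand, against 11.6% of all 7533 genes, 14.1% of higher and 8.82% of lower genes. Of the 8 with the site 6 were higher, and of the 8 without it also 6, so within the list the counts did not differ with the site. Without the dimmest 25% of genes 3 germline genes were left and none held the E-box, against 12.6% of all genes, so all 8 belonged to the dimmest genes. The windows, of 250 bases before the start, are chr3:95559427-95559676 for Hormad1 and chr10:88459337-88459586 for Sycp3, both on the plus strand, and chr13:112652311-112652560 for Ddx4 on the minus strand, with the E-box in capitals.
Hormad1: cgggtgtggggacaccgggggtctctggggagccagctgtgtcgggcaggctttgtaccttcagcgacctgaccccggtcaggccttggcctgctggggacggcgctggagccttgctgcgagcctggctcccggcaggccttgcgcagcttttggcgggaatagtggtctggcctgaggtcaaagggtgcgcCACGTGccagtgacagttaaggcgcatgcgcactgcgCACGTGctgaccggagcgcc
Sycp3: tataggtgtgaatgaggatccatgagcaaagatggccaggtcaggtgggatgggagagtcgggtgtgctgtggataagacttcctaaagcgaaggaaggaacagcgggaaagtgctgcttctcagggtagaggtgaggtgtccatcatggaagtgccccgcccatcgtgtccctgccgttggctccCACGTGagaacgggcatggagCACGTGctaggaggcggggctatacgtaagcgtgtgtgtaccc
Ddx4: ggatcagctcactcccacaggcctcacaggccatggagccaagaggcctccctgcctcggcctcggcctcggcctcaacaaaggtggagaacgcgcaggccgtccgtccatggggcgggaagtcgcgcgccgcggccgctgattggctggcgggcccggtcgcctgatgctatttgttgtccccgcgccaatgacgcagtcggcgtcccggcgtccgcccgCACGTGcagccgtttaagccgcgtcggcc
The E-box of Ddx4 lies at bases -29 to -24, and Hormad1 and Sycp3 hold 2 each.

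Genes of the egg and cleavage embryo formed a smaller group, with 8 of 9 measured members higher and none lower (median 1.89). Over all genes 17.6% were higher and 26.6% lower. The list held 21 genes, and those low in every group may be absent from the deposited values. A member low elsewhere may be present only because it was high in the iPS line, so the count does not give the share raised. Obox6, a homeobox gene of the early embryo, read 3.92, 3.81 and 3.57 in day-1 cells and 7.66, 7.58 and 7.62 in iPS cells, and averaged 4.03 in ES cells. Nlrp4f, of an oocyte-expressed gene family, read 3.52, 3.64 and 3.46 in day-1 cells and 7.23, 7.47 and 7.58 in iPS cells, with an ES mean of 3.85. Both were higher in the iPS line than at day 1, though below the iPS array medians, and near the day-1 level in R1 ES cells. Ooep, part of the maternal complex under the egg membrane, differed by 4.22. The ubiquitin protease gene Usp17ld read 6.08, 6.30 and 6.24 in day-1 cells, 11.56, 11.68 and 11.83 in iPS cells and 6.79, 7.61 and 7.06 in ES cells. It was 44.8-fold higher in the iPS line than at day 1 and belongs to a family of near-identical copies, so which copy the probe set reads is uncertain.

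Chromatin complexes differed among themselves. In the Polycomb list, 8 of 22 genes were higher and 4 lower (median 0.73). The accessory subunit gene Mtf2 (3.12) and the chromobox gene Cbx7 (2.58) were higher, and Yaf2 (-2.10), of a variant complex, was lower. Of 15 genes for enzymes and readers of histone H3 lysine 9 methylation, 9 were higher and none lower (median 1.30), among them the demethylases Kdm3a (2.56) and Kdm4c (1.87). Of 14 BAF remodelling genes, none was higher and 2 were lower, the ATPase Smarca2 (-2.70) and the subunit Smarcc2 (-1.57), both replaced by paralogs in ES cells. The other 12 BAF genes were not called, and 11 of the 14 had an interval within 2-fold. Of 12 telomere genes, 3 were higher and 1 lower, led by the telomere-binding protein gene Terf1 (2.85). With arrays centred, the Polycomb count of higher genes was 11 and the telomere count 5. Centring also raised the count over all 9539 genes, from 1679 to 2338 higher.

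The mesenchymal program was lower and the epithelial one higher in iPS cells. Cdh1, the junction protein E-cadherin, read 6.20, 5.95 and 5.90 in day-1 cells and 10.99, 10.93 and 10.92 in iPS cells, 30.5-fold higher (log2 difference 4.93 ± 0.13 SE, adjusted p = 2e-12). Of 30 epithelial genes, 19 were higher and 1, the P-cadherin gene Cdh3 (-1.64), was lower, with the adhesion molecule Epcam (4.84) among the higher ones (median 1.36). Snai2, a repressor of E-cadherin, read 10.73, 10.73 and 10.82 in day-1 cells and 7.10, 7.32 and 7.09 in iPS cells, 12.1-fold lower (log2 difference -3.59 ± 0.08 SE, adjusted p = 6.8e-13). Groups did not overlap for either gene. Of 19 mesenchymal transcription factors and regulators, 17 were lower and none higher (median -2.44), including Snai1 (-3.28), Twist2 (-3.67), Zeb2 (-3.16), Osr1 (-4.53) and Tbx15 (-3.90). The members not called were Osr2 (-0.57) and Foxc1 (-0.71).

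Hox genes, which record position along the body in fibroblasts, were lower in 17 of 27 cases and higher in none (median -1.43), led by Hoxd10 (-2.60), Hoxa10 (-2.47) and Hoxd8 (-2.42). Among surface markers used to follow reprogramming, 8 of 12 were higher and 3 lower. Thy1, the marker whose loss is used to sort cells early in reprogramming, read 12.20, 12.14 and 12.12 in day-1 cells and 8.47, 8.31 and 8.47 in iPS cells, 13.3-fold lower (log2 difference -3.74 ± 0.13 SE, adjusted p = 2.6e-11). Every day-1 array was far above every iPS array. Lower Thy1 can mean fewer expressing cells or less RNA per cell, which bulk arrays cannot tell apart, and the same holds for every other fibroblast gene.

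**Figure D2:**
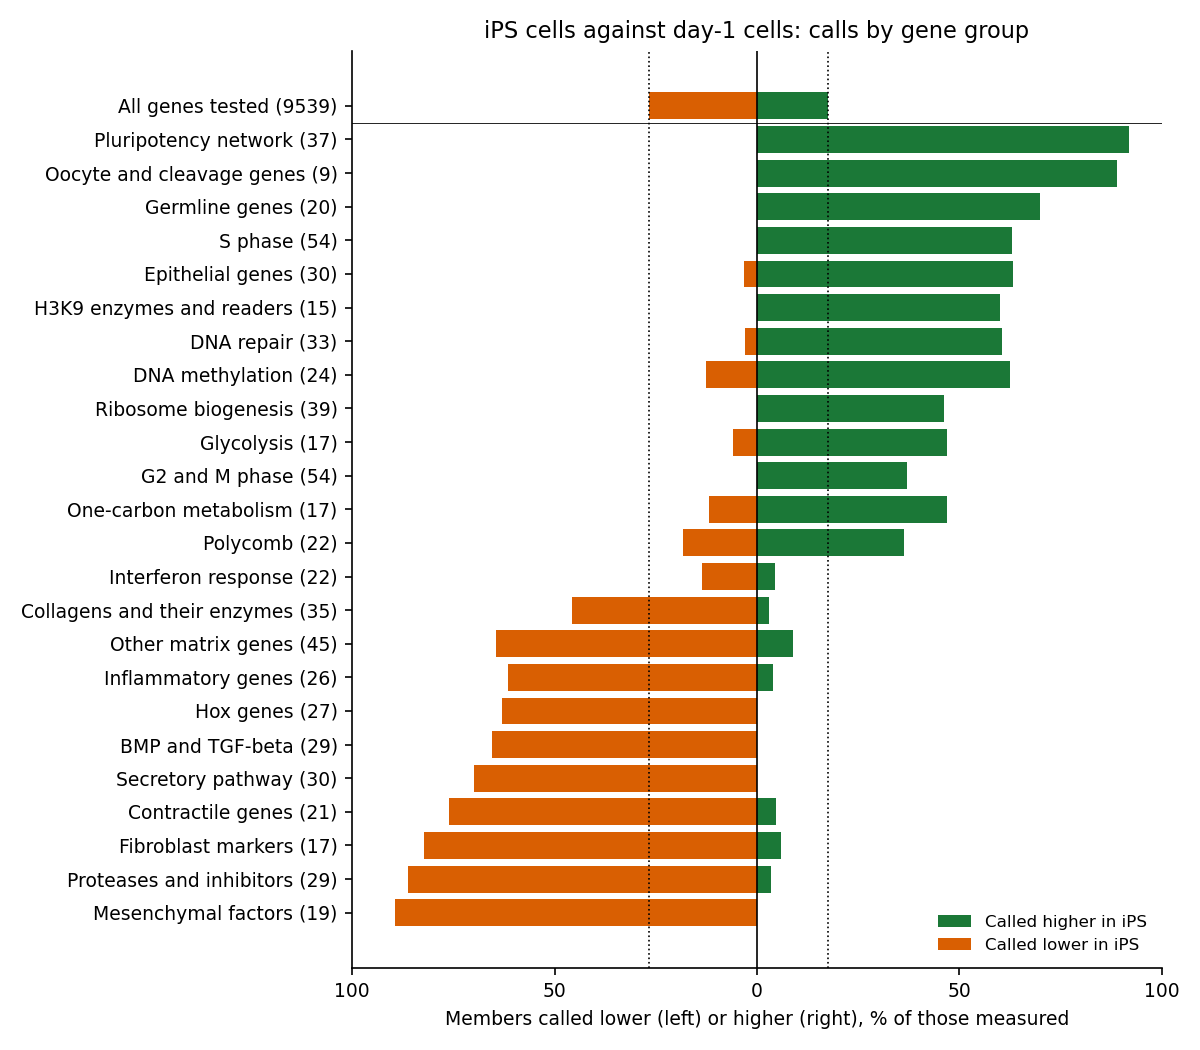
Share of the measured members of 24 gene lists called higher (right) and lower (left) in iPS than in day-1 cells, in percent, with the number of members beside each list and dotted lines at the shares over all 9539 genes, 17.6% and 26.6%. Pluripotency, cleavage and germline lists lie to the right, and regulators of the mesenchymal state, proteases and fibroblast markers lie to the left.

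The main fibrillar collagens, which build the stromal matrix, were not called between day-1 and iPS cells. Col1a1 read 12.10, 12.10 and 12.15 in day-1 cells and 12.22, 12.18 and 12.27 in iPS cells. Col1a2 read 11.64, 11.65 and 11.65 in day-1 cells and averaged 11.98 ± 0.02 (SD, n = 3) in iPS cells, and Col3a1 read 9.94, 9.87 and 9.97 in day-1 cells and 9.70, 9.74 and 9.76 in iPS cells. These 3 chains of fibrillar collagen types I and III were not called, with 95% intervals of -0.22 to 0.43, 0.07 to 0.59 and -0.54 to 0.15. In ES cells the same probe sets were lower, Col1a1 at 9.45, 10.26 and 9.69, Col1a2 at 9.21, 9.74 and 9.19 and Col3a1 at 8.03, 8.51 and 7.99, with the second ES array the highest of each. The smooth muscle actin gene Acta2 was not called either, but every iPS array lay below every day-1 array (iPS minus day-1 -0.78). Acta2 read 13.09, 13.14 and 13.14 in day-1 cells, 12.38, 12.30 and 12.36 in iPS cells and 9.10, 10.22 and 9.26 in ES cells. The mean of the 11 fibroblast markers, these 3 collagens included, was 8.68 to 8.80 on iPS and 7.68 to 8.11 on ES arrays. Feeder fibroblasts, for which the labels state a clearing step in ES cells alone, express these genes too, and their part in the iPS values was not tested.

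Other fibroblast genes were much lower in the same iPS arrays. Dcn, the proteoglycan decorin, read 11.63, 11.39 and 11.49 in day-1 cells and 7.32, 7.12 and 7.48 in iPS cells, 18.3-fold lower (log2 difference -4.20 ± 0.12 SE, adjusted p = 4.6e-12). P4ha3, a collagen prolyl hydroxylase subunit, read 11.16, 11.18 and 11.06 in day-1 cells and 6.45, 6.24 and 6.29 in iPS cells, 27.9-fold lower (log2 difference -4.80 ± 0.09 SE, adjusted p = 2.3e-13). Day-1 and iPS arrays did not overlap for either gene. Of 35 collagen genes, 16 were lower and 1, Col18a1 (1.27) of basement membranes, was higher, while 18 were not called (median -0.69). Of 45 other matrix genes, 29 were lower and 4 higher (median -1.44). Lower were the proteoglycan Lum (-4.13) and the secreted matrix protein Postn (-2.90), and the 4 higher ones, Lama1 (2.39), Lama5 (2.16), Nid2 (1.84) and Lamc1 (1.28), are all laminin or nidogen genes of the basement membrane.

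Of 29 proteases and inhibitors of the matrix, 25 were lower and 1 higher (median -1.68). Of 21 contractile genes, 16 were lower and 1, the intermediate filament gene Des (1.54), higher (median -1.41), with Cnn1 (-2.57) and Myl9 (-2.09) of smooth muscle among the lower ones. Of 17 fibroblast markers, 14 were lower and 1, the surface peptidase Dpp4 (2.46), higher (median -2.45). The PDGF receptors Pdgfra (-3.25) and Pdgfrb (-3.03), N-cadherin Cdh2 (-3.58) and the calcium-binding S100a4 (-4.18) were lower. Counts kept these directions under the other scalings, with 12 of the fibroblast markers and 22 of the proteases lower when arrays were centred.

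**Figure D3:**
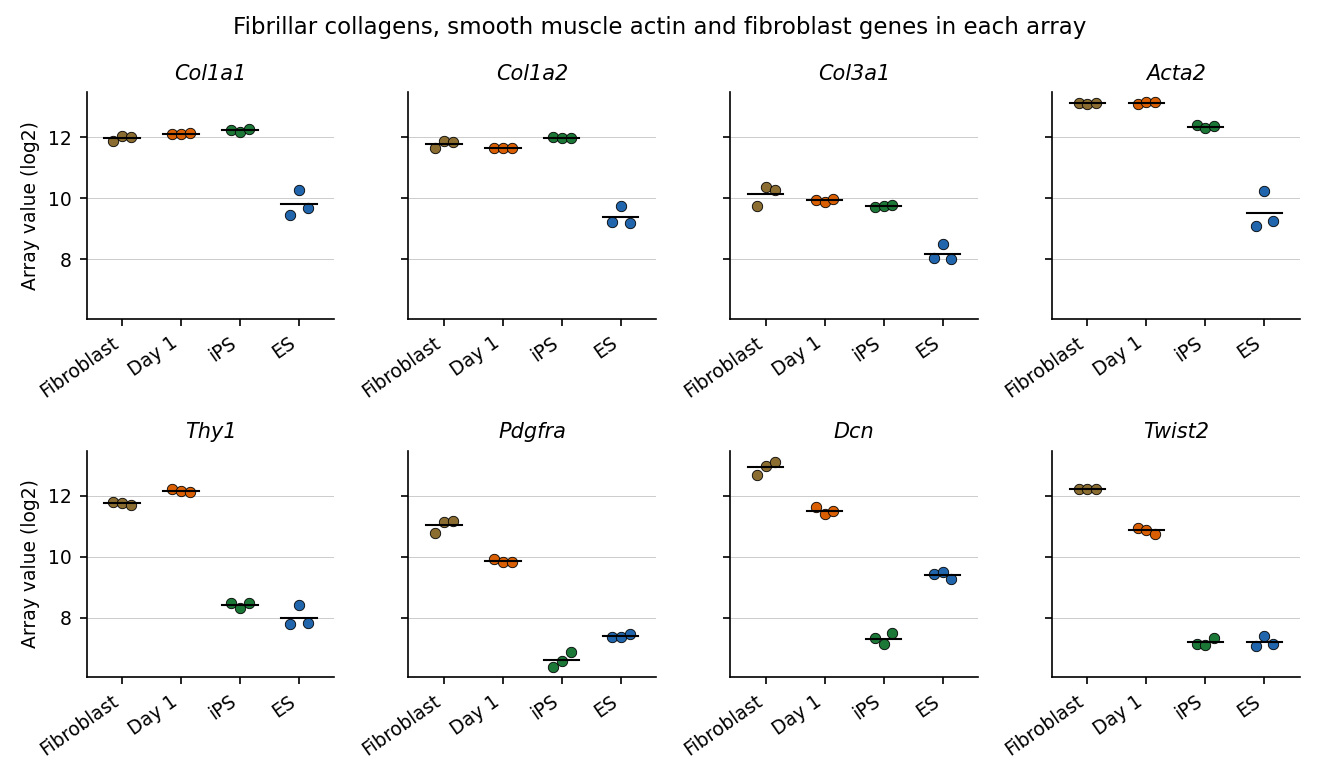
Log2 level of Col1a1, Col1a2, Col3a1, Acta2, Thy1, Pdgfra, Dcn and Twist2 on each of the 12 arrays, 1 point per array with a bar at each group mean. Col1a1, Col1a2 and Col3a1 stand as high or nearly as high in iPS as in day-1 cells, and Acta2 is lower in iPS cells by less than 2-fold. The first 4 genes are lower in ES cells, while Thy1, Pdgfra, Dcn and Twist2 are far lower in iPS than in day-1 cells.

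Genes of DNA replication and of mitosis were higher in iPS cells or not called. Of 54 S-phase genes, which copy DNA or supply nucleotides, 34 were higher in iPS cells, none lower, and the median difference was 1.21. The replication initiator gene Ticrr (2.79) and the helicase subunit Mcm3 (2.50) were among the higher ones, and Rrm2 (0.07) and Pcna (0.84) were not called. Of 54 G2/M genes, which build the spindle and drive division, 20 were higher and none lower, with a median of 0.70. Mybl2, a transcription factor of dividing cells, read 8.53, 8.58 and 8.53 in day-1 cells and 11.38, 11.28 and 11.43 in iPS cells, 7.06-fold higher (log2 difference 2.82 ± 0.09 SE, adjusted p = 1.1e-11). The cyclins Ccna2 (-0.25) and Ccnb2 (-0.15), the checkpoint gene Mad2l1 (0.16) and the proliferation marker Mki67 (-0.26) were not called. Counts of higher genes moved with scaling, to 40 S-phase and 26 G2/M genes with centred arrays, where 2338 of all 9539 genes were higher in place of 1679.

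Day-1 cells were already above untreated fibroblasts in these lists. Between day-1 cells and fibroblasts, 46 of the 54 G2/M genes and 28 of the 54 S-phase genes were called higher, where 3.46% of all genes were, with medians of 1.38 and 1.03. This comparison shares the day-1 arrays with the main one. The list median on single arrays was 7.65 to 7.97 in fibroblasts, 9.15 to 9.19 in day-1 cells, 9.996 to 10.037 in iPS cells and 10.15 to 10.21 in ES cells for G2/M genes. The interval of the G2/M differences between iPS and day-1 cells lay within 2-fold for 29 of the 54 genes, and that of the S-phase differences for 14.

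G1 regulators were mixed, with 3 of 22 higher and 5 lower, near the 17.6% and 26.6% of all genes. The kinases Cdk2 (1.29) and Cdk6 (1.23) and the phosphatase Cdc25a (1.63) were higher, and the D cyclins Ccnd1 (-1.11) and Ccnd2 (-1.31) and the kinase inhibitors Cdkn2b (-1.42) and Cdkn2c (-2.51) were lower. The call of Ccnd1 ended when arrays were centred. Of 33 DNA repair genes, 20 were higher and 1, the ubiquitin ligase Rad18 (-1.05), lower (median 1.13), led by the mismatch repair gene Msh6 (3.80), the checkpoint kinase Chek2 (2.61) and the recombination gene Brca1 (2.54).

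Promoters of 3 S-phase genes that were higher in iPS cells are shown for the E2F site, TTTCCCGC or TTTGGCGC searched on both strands, through which E2F factors act on replication genes. It was in 77 of 1308 promoters of higher genes (5.89%), 43 of 2017 of lower genes (2.13%) and 3.29% of all. Among S-phase genes, 14 of 47 (29.8%) held it, and among G2/M genes 5 of 45 (11.1%). Of the 14 S-phase genes with the site 11 were higher, and Gins3, Pold3 and Pole2 were not called, while of the 33 without it 17 were higher. The windows of 250 bases before the start are chr19:38930740-38930989 for Hells and chr11:98907901-98908150 for Cdc6 on the plus strand and chr1:128359706-128359955 for Mcm6 on the minus strand, with the site in capitals.
Hells: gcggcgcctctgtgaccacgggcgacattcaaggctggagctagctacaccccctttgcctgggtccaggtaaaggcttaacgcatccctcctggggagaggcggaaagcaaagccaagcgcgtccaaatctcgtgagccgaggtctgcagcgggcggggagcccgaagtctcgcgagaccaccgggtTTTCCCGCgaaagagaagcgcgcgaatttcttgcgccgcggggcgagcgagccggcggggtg
Mcm6: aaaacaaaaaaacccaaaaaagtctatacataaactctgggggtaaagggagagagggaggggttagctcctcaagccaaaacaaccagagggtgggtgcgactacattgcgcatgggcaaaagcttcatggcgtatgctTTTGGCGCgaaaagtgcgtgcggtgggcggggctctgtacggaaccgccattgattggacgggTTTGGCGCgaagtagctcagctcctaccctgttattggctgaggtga
Cdc6: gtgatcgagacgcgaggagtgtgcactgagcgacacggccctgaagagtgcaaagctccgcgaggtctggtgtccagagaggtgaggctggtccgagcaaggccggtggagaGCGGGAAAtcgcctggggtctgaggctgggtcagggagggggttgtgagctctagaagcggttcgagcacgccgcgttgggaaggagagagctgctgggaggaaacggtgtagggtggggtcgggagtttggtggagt
Hells holds it at bases -62 to -55, Mcm6 holds it at 2 places, and in Cdc6 it is on the opposite strand. The match says nothing about whether a factor was bound.

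Interferon genes were mostly not called and inflammatory genes were often lower. Of 22 interferon response genes, 1 was higher, the surface antigen Bst2 (1.05), and 3 were lower, Ifit2 (-1.68), Usp18 (-1.35) and Irgm1 (-1.16), and the median of -0.16 turned to 0.09 with centred arrays. In the same list 21 genes were called lower in day-1 cells than in untreated fibroblasts, where 4.33% of all genes were. Inflammatory genes were lower in 16 of 26 cases and higher in 1. With centred arrays 10 were lower and 3 higher, and after quantile normalization 13 were lower and 2 higher. Ppbp, a chemokine gene known from platelets, read 11.35, 11.62 and 11.54 in day-1 cells and 5.22, 5.02 and 4.83 in iPS cells, 89.3-fold lower (log2 difference -6.48 ± 0.13 SE, adjusted p = 4.1e-13). The neutrophil chemokine Cxcl5 (-4.62) and the macrophage growth factor Csf1 (-3.96) were lower as well. The acute-phase gene Saa3 read 5.12, 5.50 and 5.83 in day-1 cells and 8.07, 7.99 and 8.13 in iPS cells, 5.97-fold higher (log2 difference 2.58 ± 0.23 SE, adjusted p = 1.4e-07), and averaged 12.77 in fibroblasts.

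**Figure D4:**
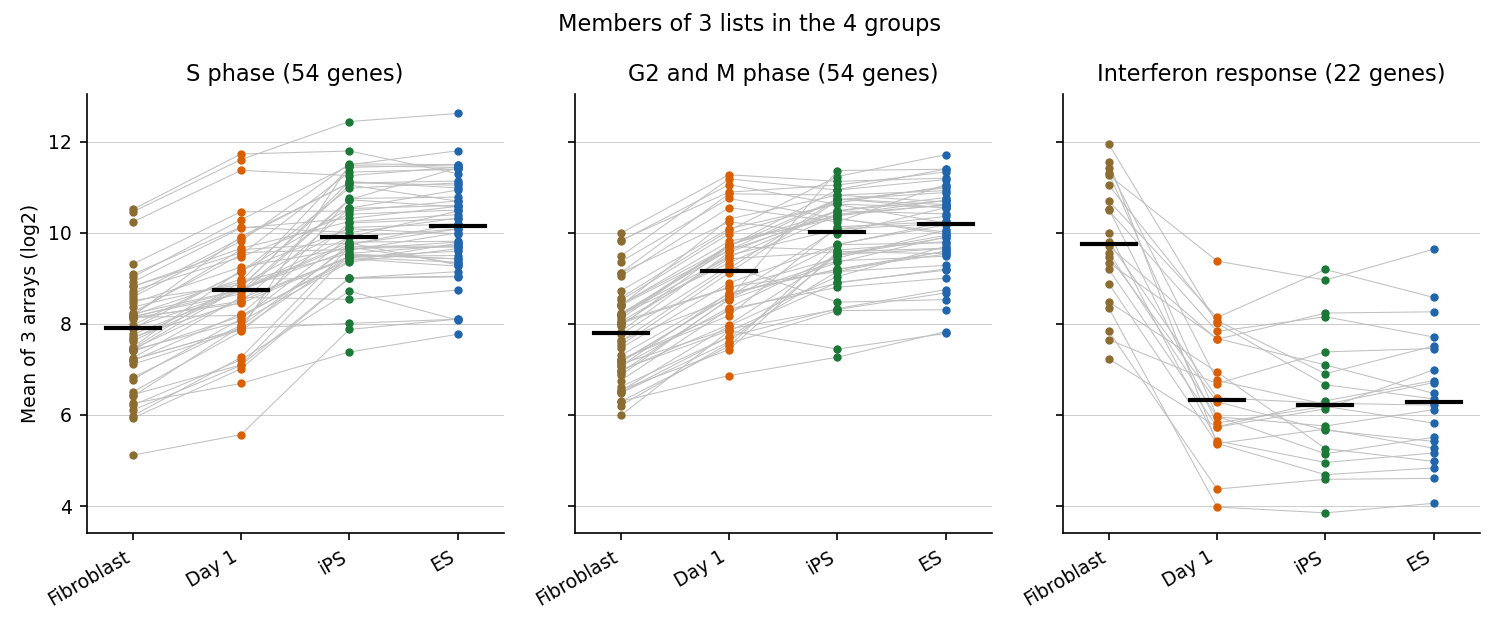
Group mean log2 levels of the members of 3 lists (54 S-phase, 54 G2/M and 22 interferon genes) in the 4 groups, 1 point and thin line per gene and a black bar at the median of the list. The S-phase and G2/M medians are lowest in fibroblasts, higher in day-1 cells and higher again in iPS and ES cells, and the interferon median is high in fibroblasts alone.

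Metabolic lists held a few large differences. Slc2a3, the high-affinity glucose transporter of the embryo, read 7.23, 7.49 and 7.20 in day-1 cells and 12.76, 12.71 and 12.77 in iPS cells, 43.4-fold higher (log2 difference 5.44 ± 0.10 SE, adjusted p = 2.3e-13), while the widely expressed transporter Slc2a1 (0.29) was not called. Of 17 glycolytic genes, 8 were higher and 1 lower (median 0.72), with the first enzyme of the pathway Hk2 (3.13) among the higher ones. Gldc, the glycine-cleaving enzyme that feeds one-carbon metabolism, read 6.09, 5.86 and 5.85 in day-1 cells and 10.43, 10.51 and 10.45 in iPS cells, 23.1-fold higher (log2 difference 4.53 ± 0.09 SE, adjusted p = 2.4e-13). Its partner Amt (4.99) was higher too. The groups did not overlap for these genes. Of 17 one-carbon genes, 8 were higher and 2 lower, the lower ones being the mitochondrial folate enzymes Aldh1l2 (-2.58) and Mthfd2l (-2.15). Of 26 respiratory chain genes, 6 were higher and 4 lower, beside 17.6% and 26.6% of all genes, or 7 and 1 with centred arrays.

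Genes for making ribosomes were higher in 18 of 39 cases and lower in none (median 0.97), and the higher count was 25 with either other scaling. Over all 9539 genes the higher count rose too, from 1679 to 2188 after quantile normalization and 2338 with centred arrays. Genes of the secretory pathway, which fibroblasts use to export matrix, were lower in 21 of 30 cases and higher in none (median -1.29), or 15 lower and 1 higher with centred arrays. The regulators of that pathway Creb3l2 (-3.01) and Creb3l1 (-2.66) were among the lower ones. Of 37 lysosome and autophagy genes, 15 were lower and 2 higher. Among RNA regulators, 9 of 30 were higher and 6 lower, beside 17.6% and 26.6% of all genes. The embryonic RNA-binding genes Lin28a (3.64) and Trim71 (3.87) were higher, and the splicing factors Mbnl1 (-2.76), Mbnl2 (-2.07) and Mbnl3 (-1.93), which promote differentiated splice forms, were lower together. Of 22 imprinted genes, 4 were higher, including Phlda2 (2.66) and Peg3 (1.22), and 5 lower, including Dlk1 (-2.71). Both counts lay near the shares over all genes.

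MicroRNA genes are described by sequence because several that were higher in iPS cells share a seed, bases 2 to 8, which pairs with target messages. Seeds were compared among called genes only. Genes not called were left out, such as Mir15a (0.99), Mir16-1 (0.62), Mir19b-2 (0.53), Mir106a (0.69) and Mir106b (0.33), by log2 difference. The shared seeds therefore do not show that a whole seed family was higher. The mature arms below, from RefSeq on build GRCm38.p6, are of called genes that share a seed with another called gene, with the seed in capitals.
mmu-miR-17-5p: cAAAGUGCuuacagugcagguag
mmu-miR-20a-5p: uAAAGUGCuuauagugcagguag
mmu-miR-19a-3p: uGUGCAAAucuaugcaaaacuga
mmu-miR-19b-3p: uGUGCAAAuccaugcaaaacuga
mmu-miR-15b-5p: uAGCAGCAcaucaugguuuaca
mmu-miR-16-5p: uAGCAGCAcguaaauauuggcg
mmu-let-7f-5p: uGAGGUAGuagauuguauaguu
mmu-let-7d-5p: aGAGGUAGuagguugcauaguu
mmu-let-7g-5p: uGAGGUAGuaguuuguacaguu
mmu-miR-98-5p: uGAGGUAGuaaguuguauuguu
They share 4 seeds, AAAGUGC (miR-17-5p and miR-20a-5p), GUGCAAA (miR-19a-3p and miR-19b-3p), AGCAGCA (miR-15b-5p and miR-16-5p) and GAGGUAG (the 4 let-7 family arms). The opposite arms of 2 of these genes, let-7f-1-3p and miR-98-3p, also share a seed, UAUACAA, and are not printed. The arm miR-17-5p lies at chr14:115043684-115043706 and miR-15b-5p at chr3:69009775-69009796, both on the plus strand. The arrays read the transcript of the microRNA gene and not the mature arm.

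Of 106 measured microRNA genes, 19 were higher and 4 lower in iPS cells, 83 were not called, and the median was 0.48, beside 17.6% higher, 26.6% lower and -0.34 over all genes. Mir15b read 3.94, 4.15 and 3.93 in day-1 cells and 6.76, 6.82 and 6.76 in iPS cells, a difference of 2.78 ± 0.14 (SE, adjusted p = 4.8e-10), and its neighbour Mir16-2 (1.49) was higher too. The measured genes of the Mir17 cluster, Mir17 (1.26), Mir18 (2.07), Mir19a (2.22), Mir20a (2.20) and Mir19b-1 (2.02), were all higher, as was the host transcript Mir17hg (1.75). These 5 genes were each called lower in iPS than in ES cells, where 6.90% of all genes were called in either direction, for example Mir20a, which read 4.31, 4.40 and 4.38 in day-1 cells, 6.77, 6.55 and 6.38 in iPS cells, and averaged 7.81 ± 0.31 (SD, n = 3) in ES cells. Of 7 measured genes of the let-7 family, whose maturation Lin28 proteins block, 4 were higher at the level of the gene transcript, Mirlet7f-1 (2.37), Mirlet7d (1.26), Mir98 (1.23) and Mirlet7g (1.15), and Mirlet7f-2 (0.53), Mirlet7a-2 (0.47) and Mirlet7e (0.38) were not called. The genes called lower were Mir145a (-1.78), Mir568 (-1.66), Mir181b-1 (-1.51) and Mir377 (-1.48), the first of them known from smooth muscle and stroma.

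The second pair, ES cells against fibroblasts, shares no array with the first and shows which differences recur between another pluripotent line and fibroblasts. There, 2234 genes were higher (23.4%) and 3065 lower (32.1%). Of the 1679 genes higher in iPS cells, 1366 were higher in that pair too, which is 81.4% of the first list and 61.1% of the second. Of the 2537 lower genes, 2124 were lower in both, 83.7% and 69.3%. A further 10 genes were higher in the first pair and lower in the second, and 6 had the opposite pattern. The differences correlated at 0.873 across the 9539 genes, given as a description, since genes are not independent. All of them varied over the 12 arrays, this pair included, and whether a filter on variation raised overlap and correlation was not tested.

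The difference of the 2 differences was tested in the same limma fit. By the same rule 1618 genes (17.0%) were called, 930 (9.75%) with a higher value for the iPS and day-1 pair and 688 (7.21%) with a lower one, while 6501 genes (68.2%) had an interval within 2-fold. Of the called genes, 872 were also called between iPS and day-1 cells and 746 were not. Pou5f1 gave the lowest value (-7.12), with its high level at day 1 and low level in fibroblasts. Cell cycle genes were also on that side. None of the 54 G2/M genes was higher by this contrast and 51 were lower, with Cdk1, Plk4 and Spc24 not called, and 29 of 54 S-phase genes were lower. In the pluripotency list 10 of 37 were lower, including Pou5f1 and Zfp42 (-3.01), Tbx3 (1.09) was higher, and the other 26 members were not called by this test. Tet1, which is not in that list, was lower (-1.89).

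Among the 930 genes with higher values for the iPS and day-1 pair were members of the interferon, inflammatory and matrix lists. By the contrast 20 of 22 interferon genes and 22 of 26 inflammatory genes were higher and none lower. The interferon list median was 9.68 to 9.81 on fibroblast arrays, 6.23 to 6.51 on day-1 arrays, 6.06 to 6.34 on iPS arrays and 5.83 to 6.82 on ES arrays. Of 35 collagens 15 were higher, with Col1a2 at 2.73, Col1a1 at 2.27 and Col3a1 at 1.75, and of 45 other matrix genes 22, with Postn at 2.77. None of either list was lower, apart from 1 collagen gene with centred arrays. Fibroblasts averaged 11.96 for Col1a1 and 11.78 for Col1a2, close to the day-1 and iPS arrays, and all 3 chains were called higher in iPS than in ES cells. Of 9 cleavage genes 4 were higher by the contrast, with Obox6 at 3.64 and Nlrp4f at 3.57, and of 20 germline genes 6 were lower and 1 higher.

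**Figure D5:**
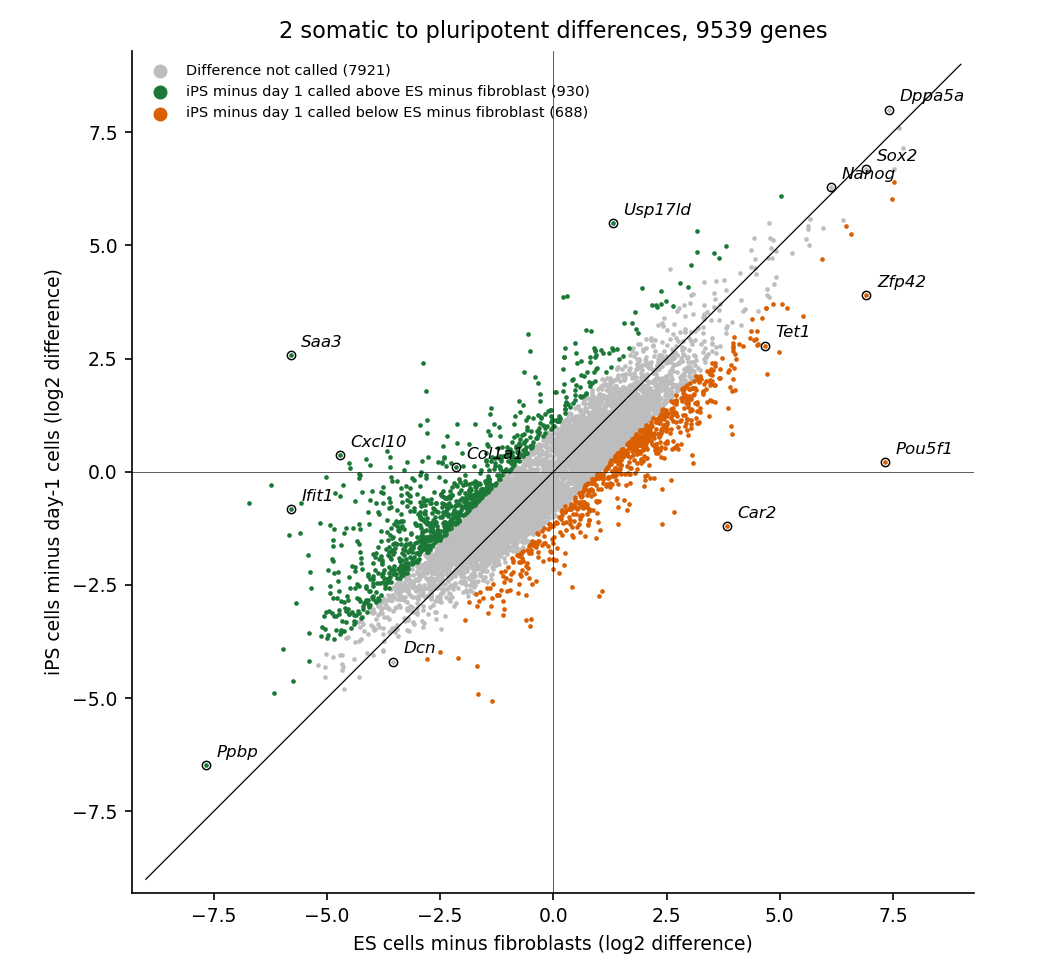
Log2 difference iPS minus day-1 (vertical) against ES minus fibroblast (horizontal) for 9539 genes, 1 point per gene, with the line of equality. Grey points (7921) were not called by the test of the difference between both, and coloured points are the 930 genes higher and 688 lower for the iPS and day-1 pair. Most points lie along the line.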

How the data were processed

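Per the labels' protocols, total RNA was extracted with Trizol and biotin-labelled for Affymetrix whole-transcript arrays. The log2 values, 1 per probe set and array, are those the authors deposited as the value table of the series. Its log scale was taken from the range, 2.43 to 13.64, and summarisation, normalization and any filter are not given in the sources used here. Every probe set varied by at least 0.51 on the log2 scale. Of 10360 probe sets 9542 had 1 gene symbol in the platform annotation, 344 several and 474 none. Those with 1 symbol were used, and for 3 genes with several probe sets the one with the highest mean, which gave 9539 genes.

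All 12 arrays were fitted with limma 3.58.1 in R 4.3.3 with a mean per group, eBayes, and Benjamini-Hochberg adjustment over 9539 genes, and every adjusted p comes from that fit. Genes counted as called had an adjusted p below 0.05 and differed by 1 or more on the log2 scale. Errors of differences are standard errors, and intervals are 95%. Depth does not apply to arrays, and 3 arrays a group limit the precision.

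Genes were described by 52 lists, of whose 1430 distinct members 1036 were measured. The groups, members and lists were chosen with earlier results of these data known. Named genes are the 15 highest and 15 lowest differences, the 10 highest and 10 lowest in the test of the difference between pairs, up to 6 called members of a list per direction, members called against a list's main direction, and some not called. A few others (microRNA genes, members completing a count) were named after their values were seen. Simulated data held 9539 genes, 100 of them changed by 1.5 and 100 by 2 on the log2 scale. The steps recovered 100% of the changed genes in both tests. Both changes lie above the 2-fold rule and far above the median standard errors of 0.094 and 0.133 in the 2 tests. Full recovery therefore checks the steps alone. It says nothing about differences near the rule, about scaling, or about data in which most genes differ.

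Alternatives changed the scaling (quantile normalization, centring every array on 1 median), the genes (the dimmest 25% left out, probe sets averaged), the fit (the compared groups alone, a trended robust prior, array weights, the replicate number as a block) or the call (adjusted p alone, limma's treat). Each array was also left out in turn. Between day-1 and iPS cells, deviations of arrays with the same number correlated at 0.05, -0.01 and 0.03, so the numbers were not used to pair arrays. Promoter windows and mature microRNAs come from RefSeq tables on GRCm38.p6, and Python 3.11.15 was used for the tables and plots.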

Additional observations from a re-analysis of the deposited data

Results flagged for a closer look

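The genes listed here had the largest called differences, in each direction, between the iPS and day-1 pair and the ES and fibroblast pair, as the log2 difference of the differences in the limma fit. On the higher side were the acute-phase gene Saa3 (8.377), the interferon response genes Ifit3 (6.028), Ifit1 (4.974), Ifit3b (4.723) and Ifi205 (4.88), the chemokine genes Ccl3 (5.955) and Cxcl10 (5.069), Baiap2l1 (5.302), Lcn2 (4.907), which binds bacterial siderophores, and Bst1 (4.593). Saa3 averaged 12.77 in fibroblasts, 5.49 at day 1, 8.06 in the iPS line and 6.97 in ES cells. Lcn2 averaged 11.77 in fibroblasts, 5.38 at day 1, 5.26 in the iPS line and 6.74 in ES cells, and Bst1 averaged 8.74 in fibroblasts, 5.54 at day 1, 7.32 in the iPS line and 5.93 in ES cells. Baiap2l1, a membrane-bending adaptor, averaged 9.02 in fibroblasts, 7.95 at day 1, 10.37 in the iPS line and 6.13 in ES cells, and thus had its highest mean in the iPS line.

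On the lower side were Pou5f1 (-7.118), the carbonic anhydrase gene Car2 (-5.03), Map7d3 (-3.739), the ribosomal protein gene Rpl36 (-3.718), Serpina3n (-3.716), Socs2 (-3.55), a feedback inhibitor of cytokine signalling, Enpp3 (-3.549), the fatty acid carrier Fabp7 (-3.232), the neuronal filament gene Ina (-3.116) and Zfp42 (-3.01). Car2 averaged 6.03 in fibroblasts, 8.32 at day 1, 7.13 in the iPS line and 9.87 in ES cells. Fabp7 averaged 6.69 in fibroblasts, 10.16 at day 1, 5.26 in the iPS line and 5.02 in ES cells, so that day-1 cells alone were high. Serpina3n averaged 8.19 in fibroblasts, 10.58 at day 1, 5.52 in the iPS line and 6.85 in ES cells. Ina averaged 6.02 in fibroblasts, 6.19 at day 1, 7.01 in the iPS line and 9.96 in ES cells. Rpl36 read 5.98, 3.90 and 4.72 on the iPS arrays, a wide spread, and may share sequence with copies of the gene, so its value is uncertain.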

How the results depend on the processing

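The calls between iPS and day-1 cells numbered 4192 to 4275 under quantile normalization, centring, averaged probe sets, the groups compared alone, a trended robust prior, array weights and the replicate block, 3397 without the dimmest 25% of genes and 3131 with limma's treat over 2-fold. With the replicate block 4216 genes were called, the number without it, and the block changed no call among the named genes. With no fold minimum, 8851 genes were called between iPS and day-1 cells (3897 higher, 4954 lower), 9050 between ES cells and fibroblasts (4121 and 4929) and 5745 by the test of the difference between the pairs (2833 and 2912), and 42 lists in place of 22 had most of their members called one way, since the fold rule is what is dropped. With treat, the test of the difference called 617 genes (380 higher, 237 lower), as it requires more than 2-fold beyond error. Leaving out single arrays gave 4195 to 4251 calls between iPS and day-1 cells (1661 to 1702 higher, 2499 to 2583 lower), 5245 to 5309 between ES cells and fibroblasts (2216 to 2248 and 3026 to 3082), 1572 to 1717 for the difference (882 to 994 and 670 to 748), and 22 lists throughout. The share of higher calls between ES cells and fibroblasts was 42.2%, 53% after quantile normalization and 58.7% with centred arrays, and in the test of the difference 57.5%, 53.2% and 48.4%. None of the 492 named genes was called in the opposite direction between iPS and day-1 cells under any of these alternatives. Of the list medians, 5 turned from below 0 to above 0 with centred arrays, those of the interferon (-0.16 to 0.09), BAF complex (-0.16 to 0.10), cholesterol (-0.12 to 0.14), G1 regulator (-0.08 to 0.18) and LIF lists (-0.02 to 0.23), and all but the interferon median also did so after quantile normalization. Of the 492 named genes, centring ended 21 calls and added 19, and quantile normalization ended 17 and added 13. The E2F site was in 6.63% of promoters of higher genes without the dimmest genes, and in 6.27% when only genes with 1 listed start were used, an alternative chosen after seeing the data. Probe sets near the bottom of the scale give compressed differences, and no detection calls were used.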
